A study of Mus musculus with 6 samples.

Results

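A set of 10 genes that mark or are made by the choroid plexus were followed through polyA+ RNA-seq libraries of the mouse cortex at embryonic day 18.5. The genes were Ttr, Enpp2, Otx2, Folr1, Clic6, Aqp1, Kcnj13, Kl, Igf2 and Igfbp2, and they were found by their symbol as 10 of the 59484 features in the table, 23505 of which carry a symbol. The 6 libraries came from C57BL/6 embryos, 3 wild type and 3 Sam68:Slm2 double knockout (dKO), which carry constitutive knockouts of the STAR RNA-binding proteins Sam68 (gene Khdrbs1) and SLM2 (gene Khdrbs3). The dKO line was bred from parents that already lacked Slm2, so wild type and dKO embryos came from different matings, and litter and genotype cannot be told apart. The labels do not say that each library is 1 embryo, so the p-values below measure the spread between these libraries. The question for these genes was whether they differ between the genotypes, library by library.

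The choroid plexus is a sheet of epithelium in the brain ventricles that secretes cerebrospinal fluid. It is not part of the cortex, although it lies next to the medial cortical wall. Its epithelial cells carry thyroxine and retinol with transthyretin (Ttr), take up folate with folate receptor alpha (Folr1), move water and ions through Aqp1, Kcnj13 and Clic6, and depend on the homeodomain factor Otx2. Some of its secreted products are also made elsewhere in the brain. Autotaxin, the product of Enpp2, is a lysophospholipase D that makes the signalling lipid lysophosphatidic acid, and it is also a product of oligodendrocyte lineage cells. Igf2 is a fetal growth factor of the choroid plexus, the meninges and blood vessels, and Igfbp2 binds insulin-like growth factors.

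Enpp2 is also known as a splicing target of SLM2, under the name lysoPLD/ATX, which is why its alternative exons are shown here. The study reports that splicing of its lysoPLD/ATX exon was not changed in the dKO cortex at the embryonic stage of these libraries. It reports an effect on the same exon in the adult dKO cortex. The GENCODE M21 annotation of GRCm38 places Enpp2 on the minus strand of chromosome 15 (feature 54838901 to 54920146 in the table) and holds 4 full coding transcripts that differ by 2 in-frame cassette exons. The sequences below are those exons, 5′ to 3′ on the transcribed strand, with capitals marking TAAA, the short A/U-rich word that STAR proteins prefer.
Enpp2 exon of 156 bases, chr15:54877776-54877931, in 2 of 4 transcripts: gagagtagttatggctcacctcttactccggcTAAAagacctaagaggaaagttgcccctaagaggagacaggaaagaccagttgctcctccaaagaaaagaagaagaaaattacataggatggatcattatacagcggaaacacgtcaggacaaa
Enpp2 exon of 75 bases, chr15:54851348-54851422, in 1 of 4 transcripts: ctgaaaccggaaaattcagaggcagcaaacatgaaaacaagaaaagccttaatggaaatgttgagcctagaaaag
The longer exon held TAAA at 1 place and the shorter exon at 0 places, and neither held TTTA, its reverse complement. Among internal exons of protein-coding transcripts, TAAA stood in 27.8% of the 993 exons of 156 bases and in 21.1% of the 1258 exons of 75 bases, and TTTA in 28.9% and 18.0%. The study numbers its Enpp2 exon in another annotation, and it was not matched to either of these exons. The table gives 1 value per gene, so all Enpp2 values below cover every isoform together.

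The deposited values are normalized counts, that is reads divided by a size factor of the library, and they gave back 31837922 to 40896541 whole reads per library. One read was worth 0.877 to 1.16 normalized counts. Features with exactly 2 reads outnumbered those with 1 read by 2.11 to 2.62 times in every library, so a sequenced fragment was often counted as 2 reads and low values rest on fewer molecules than their reads. Both targeted genes were lower in dKO, but only Khdrbs1 was nearly absent. The RNA level of Khdrbs3 alone therefore does not show its knockout. The mean of Khdrbs1 was 8213 normalized counts for wild type embryos against 152 for dKO embryos, or 1.86%, and that of Khdrbs3 was 13841 against 6652, or 48.1%. Wild type 3 was highest of the 6 libraries for 10 of 13 meninges genes and 8 of 11 motile cilia genes. It was also highest for 8 of 13 endothelial and mural cell genes. Other libraries stood out in other lists. Wild type 1 was highest for 8 of 12 ion and water transport genes and 6 of 9 oligodendrocyte lineage genes. For 6 of 9 cortical excitatory neuron genes dKO 1 was highest, and for 5 of 6 erythroid genes dKO 3. The same count over all features was not made. Values without it are therefore given for the choroid plexus genes and for each gene list.

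Several transcripts that define choroid plexus epithelium were near 0 in these cortex libraries, and others were low. Of the 10 genes, 7 reached at most 56.1 normalized counts in any library, and only Igfbp2, Igf2 and Enpp2 were abundant. Ttr, the most abundant transcript of choroid plexus epithelium, was at 1.90, 2.15 and 14.0 normalized counts in wild type 1 to 3 and at 9.08, 10.5 and 2.32 in dKO 1 to 3. These values stand for 2 to 16 reads per library. The highest and the lowest library were both wild type, and the genotypes overlapped, with means of 6.03 ± 6.93 and 7.28 ± 4.35 (SD, n = 3).

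Per kb of annotated exon, the scale on which genes can be compared with each other, Igfbp2 averaged 4177 normalized counts, Igf2 106 and Enpp2 72.3. They were followed by Aqp1 at 6.42, Ttr at 5.61, Clic6 at 4.16, Otx2 at 3.38, Folr1 at 1.27, Kcnj13 at 0.959 and Kl at 0.634. Igfbp2 thus stood at the 98.2nd percentile of the 17249 named features with a read and an annotated length, Igf2 at the 55.4th and Enpp2 at the 50.1st, against the 8.41st to 22.7th for the other 7. The ranges over the 6 libraries overlapped for all neighbours in this order except Igfbp2 with Igf2 and Enpp2 with Aqp1.

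**Figure D1:**
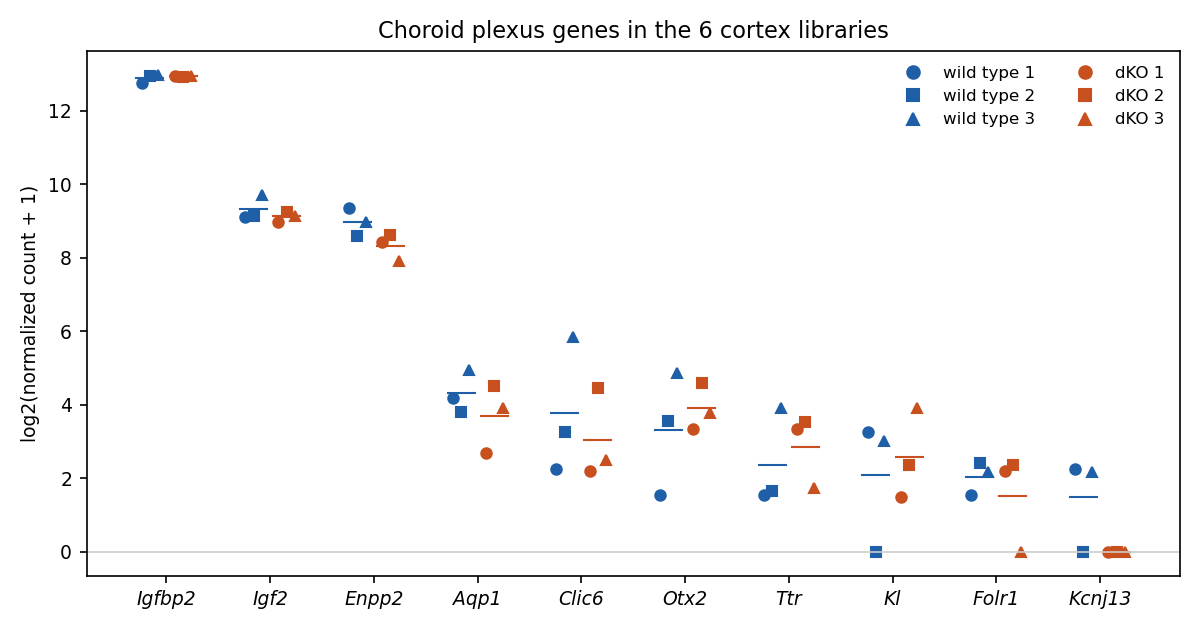
Each point is the log2(normalized count + 1) of a gene in 1 library, with wild type in blue, dKO in orange, a marker shape for each library number and bars for group means. Igfbp2, Igf2 and Enpp2 sit far above the other 7 genes, and for each of the 10 genes the colours overlap.

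**Figure D2:**
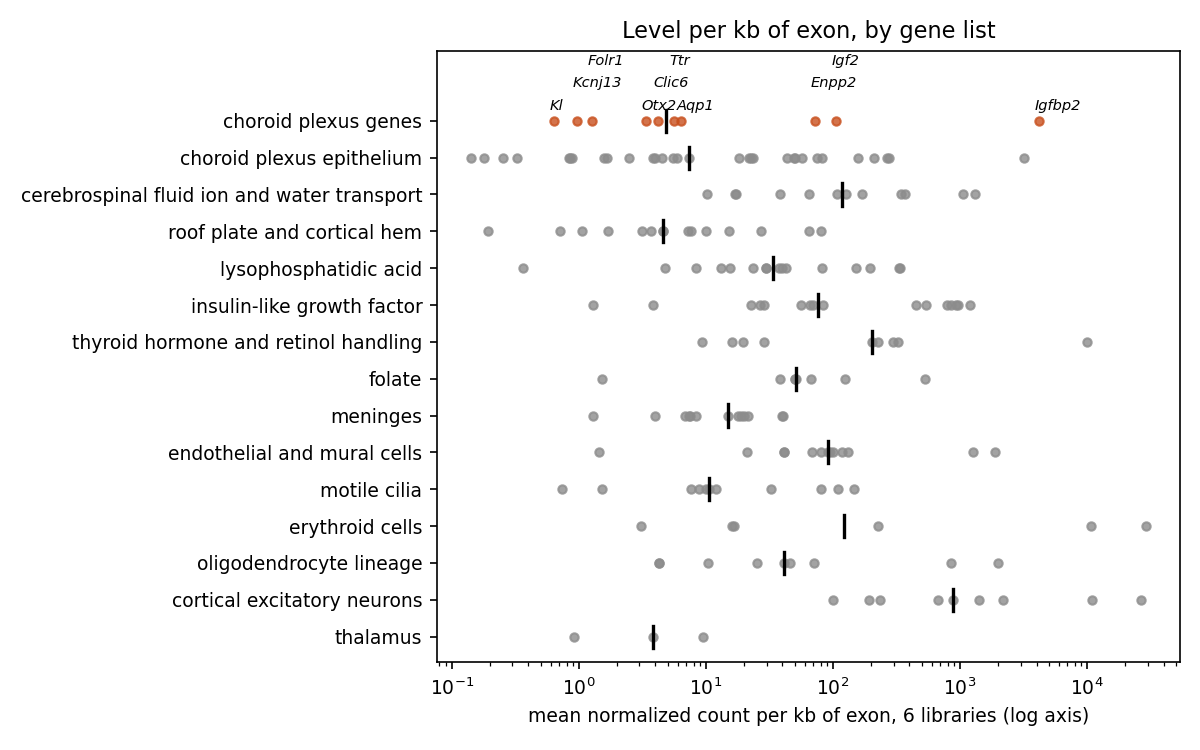
Each point is the mean normalized count per kb of exon of a gene over the 6 libraries, on a log axis, by gene list, and black ticks are list medians. The 10 choroid plexus genes (orange) have a median of 4.89 and the wider epithelium list one of 7.41, while the cortical excitatory neuron list has one of 887.

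The remaining low genes showed the same scatter. Otx2, the homeodomain factor of the epithelium, read 1.90, 10.7 and 28.1 normalized counts in wild type and 9.08, 23.0 and 12.8 in dKO. Clic6, an intracellular chloride channel protein, read 3.80, 8.59 and 56.1 in wild type and 3.63, 20.9 and 4.64 in dKO. Aqp1, the apical water channel, read 17.1, 12.9 and 29.8 in wild type and 5.45, 22.0 and 13.9 in dKO. In each of these 3 genes wild type 3 was highest and dKO 2 second, and the dKO values fell inside or overlapped the wild type range.

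Folr1 read 1.90, 4.30 and 3.51 normalized counts in wild type and 3.63, 4.18 and 0 in dKO. Kl, which encodes the FGF23 co-receptor Klotho, read 8.56, 0 and 7.01 in wild type and 1.82, 4.18 and 13.9 in dKO. Kcnj13, the inward rectifier Kir7.1, read 3.80, 0 and 3.51 in wild type and 0 in all 3 dKO libraries. With 0 reads a level of up to 2.63 to 3.48 normalized counts per library remains possible (3 reads, counting error only). This holds if each read is its own fragment, and the limit is higher where a fragment was counted more than once. A loss of Kcnj13 was therefore not detectable at this depth. Folr1 shares bases with Anapc15 and Kcnj13 lies inside Gigyf2, each on the opposite strand and with means of 281 and 2505 normalized counts. The strand setting of the counting is not given in the sources used here, so the few reads of Folr1 and Kcnj13 cannot be told apart from reads of those genes.

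Summed over the 7 low genes, the libraries held 39.0, 38.7 and 142 normalized counts in wild type and 32.7, 84.7 and 47.6 in dKO. The sum was highest in wild type 3 and next in dKO 2, with means of 73.2 ± 59.6 and 55.0 ± 26.8 (SD, n = 3). The 13 meninges genes summed to 1140, 797 and 2023 in wild type and to 762, 770 and 668 in dKO, so wild type 3 was highest there too, while dKO 2 was not raised. Their part in the result was not tested. In whole tissue, fewer cells of a type and less RNA per cell cannot be told apart.

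None of the choroid plexus genes passed the genotype test. Limma on log2(normalized count + 1), run on the 18970 features averaging 10 normalized counts or more, called 0 of the 6 genes that met this mean (Enpp2, Otx2, Clic6, Aqp1, Igf2 and Igfbp2) at an adjusted p of 0.05, against 0.1% of all features. Clic6 met the mean mainly through wild type 3. edgeR and DESeq2 on the recovered reads also called 0 of the 6, against 19 and 207 of the 18970 features. At an unadjusted p of 0.05, 1 of the 6 (Enpp2) passed, against 11.5% of all features. None of the 10 genes had genotypes that did not overlap, against 16.4% of all features tested in either direction and 8.48% with dKO lower.

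The median log2 fold change of dKO against wild type over the 6 tested genes was -0.40, beside 0.0036 over all features tested, and 4 of the 6 were negative. Without wild type 3 this median was 0.04. By gene, the log2 fold change was -0.73 ± 0.94 (SE) for Clic6, -0.60 ± 0.57 for Aqp1 and 0.58 ± 0.79 for Otx2. Without wild type 3 these 3 values became 0.29, -0.28 and 1.35. Without wild type 1, which had the fewest Otx2 reads, Otx2 turned to -0.31. With all 25882 features of mean at least 1 in the fit, the 4 lowest genes gave 0.49 ± 0.80 for Ttr, -0.51 ± 0.83 for Folr1, -1.48 ± 0.92 for Kcnj13 and 0.50 ± 0.95 for Kl, none with an adjusted p under 0.60. These fitted values depend on the pseudocount of 1.

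**Figure D3:**
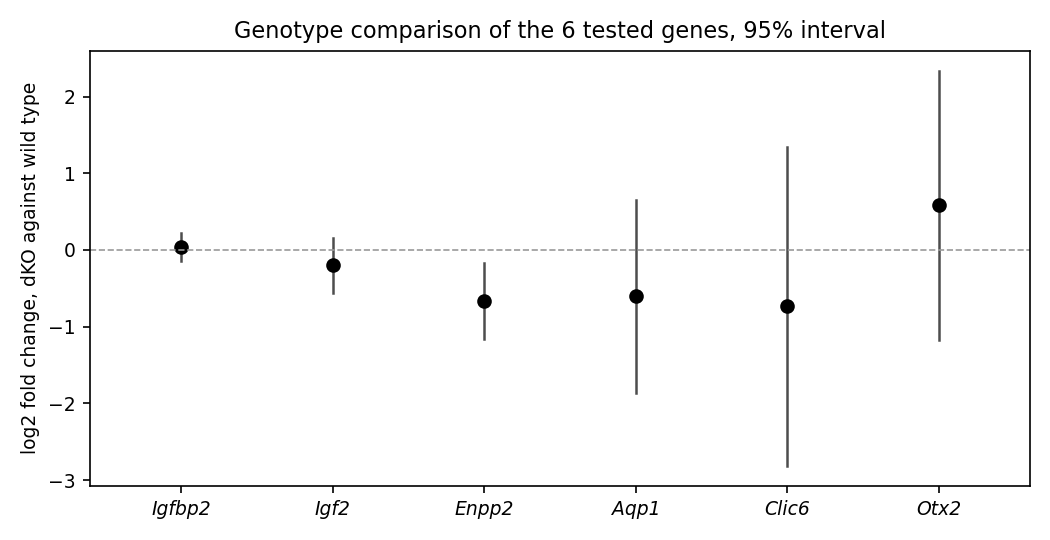
Points are the limma log2 fold changes of dKO against wild type for the 6 genes with a mean of at least 10, and lines are 95% intervals. The interval of Enpp2 runs from -1.16 to -0.17, the intervals of the other 5 genes include 0, and those of Otx2 and Clic6 span more than 3 log2 units.

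Enpp2 was the gene with the largest genotype difference relative to its error, and it did not pass the test over all features. It read 653, 386 and 501 normalized counts in wild type 1 to 3 and 340, 390 and 238 in dKO 1 to 3. The groups overlapped, because dKO 2 was above wild type 2. The means were 513 ± 134 and 323 ± 77.7 (SD, n = 3), so dKO stood at 62.8% of wild type. The log2 fold change was -0.67 ± 0.22 (SE) with an unadjusted p of 0.0129 and an adjusted p of 0.357 in limma. The exact two-sided permutation test gave p = 0.2, where 0.1 is the smallest value that 3 against 3 allow. Without wild type 3 the log2 fold change was again -0.67, and it was -0.48 without wild type 1 and -0.46 without dKO 3, with unadjusted limma p-values of 0.0542 and 0.0514.

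The order of the libraries by Enpp2 was not that by Ttr. Wild type 1 had the highest Enpp2 value with 687 reads and, with wild type 2 and dKO 3, the fewest Ttr reads at 2. From high to low the libraries ran wild type 1, wild type 3, dKO 2, wild type 2, dKO 1 and dKO 3 for Enpp2, and the order was the same for Pdgfra, the receptor that marks oligodendrocyte precursors, and for Olig2, a transcription factor of that lineage. The order was also the same for Sostdc1, a secreted antagonist on the wider epithelium list, which read 107, 66.6 and 103 in wild type and 50.8, 101 and 34.8 in dKO, and for the sodium pump subunit gene Atp1b1. Pdgfra read 861, 377 and 571 normalized counts in wild type and 348, 392 and 228 in dKO. The ratio of Enpp2 to Pdgfra within a library stayed between 0.759 and 1.04, while Enpp2 itself varied 2.75-fold. Olig2 read 3171, 1986 and 2647 in wild type and 1871, 1997 and 1108 in dKO.

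Across the 6 libraries the Pearson correlation of Enpp2 with single lineage genes, on the log2 scale and given as a description, was 0.995 for Olig1, 0.993 for Pdgfra, 0.987 for Olig2, 0.974 for Sox10, 0.966 for Mbp and 0.926 for Cspg4. It was 0.368 for Mag and 0.136 for Mog, whose levels were low, with means of 17.4 and 7.29 normalized counts. Of 12730 named features with a mean of at least 50, the 10 most like Enpp2 were Adam23, Atp6ap2, Olig1, Pde2a, Gpr158, Tpd52, Pdgfra, Gpr17, Arap1 and Olig2, with correlations of 0.987 to 0.998. Of these, 4 (Olig1, Olig2, Pdgfra and Gpr17) are known from the oligodendrocyte lineage. With only 6 libraries, 113 features reached a correlation of 0.95.

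Enpp2, Igf2 and Igfbp2 were each set against the mean standardized level of 14 gene lists, 42 relations in all, and none passed adjustment over them. The closest was Enpp2 with the oligodendrocyte lineage list (8 genes), with Pearson's r = 0.970 (exact permutation p = 0.0028, adjusted p = 0.117) and Spearman's rho = 0.943 (exact permutation p = 0.0167, adjusted p = 0.233). Without the 2 libraries farthest from the median, dKO 3 and wild type 1, r was 0.975, and within genotypes it was 0.947. No test set this list apart from the next ones. With the endothelial and mural cell list r was 0.918 (exact permutation p = 0.0139, adjusted p = 0.136, rho = 0.886, exact permutation p = 0.0333, adjusted p = 0.233), and 0.974 without wild type 3 and dKO 3. With the ion and water transport list it was 0.916 (exact permutation p = 0.0153, adjusted p = 0.136, rho = 0.943, exact permutation p = 0.0167, adjusted p = 0.233), and 0.721 without wild type 1 and dKO 3. With the lysophosphatidic acid list it was 0.911 (exact permutation p = 0.0194, adjusted p = 0.136, rho = 0.771, exact permutation p = 0.103, adjusted p = 0.392), and 0.910 without dKO 3 and wild type 3. Within genotypes these 3 values were 0.810, 0.877 and 0.793. With the wider choroid plexus epithelium list (23 genes) r was 0.703 (exact permutation p = 0.121, adjusted p = 0.325) and rho was 0.771 (exact permutation p = 0.103, adjusted p = 0.392). Without wild type 3 and dKO 1, the 2 libraries farthest from the median there, r was 0.715, and within genotypes it was 0.614.

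As a description, Enpp2 was also set against the mean log2 level of the 8 lineage genes of its own library. This scaling was chosen after seeing the data, by genes that were seen to correlate with Enpp2 and to be lower in dKO, so the choice itself favours a small difference and nothing is supported by it. The relative log2 level was 0.73, 0.27 and 0.26 in wild type and 0.50, 0.49 and 0.34 in dKO, with means of 0.42 ± 0.27 and 0.44 ± 0.09 (SD, n = 3). The difference was 0.02, beside -0.67 for Enpp2 alone. Relative to single genes the difference was 0.19 for Pdgfra, 0.17 for Olig1, 0.0041 for Olig2, -0.06 for Sox10 and -0.23 for Cspg4. Among the lineage genes themselves, 0 of 8 tested were called at an adjusted p of 0.05 by limma or edgeR and 4 had an unadjusted p under 0.05, all lower in dKO, against 6.58% of all features, the median log2 fold change being -0.64. With wild type 3 left out, 2 of the 8 were lower at an unadjusted p under 0.05, and the median was -0.60. That fit has no share over all features beside it. DESeq2 called 1 of the 8, Pdgfra (adjusted p = 0.0468), beside 207 of all 18970 features. The log2 fold changes of Olig1, Pdgfra and Olig2 were -0.84 ± 0.25, -0.86 ± 0.30 and -0.67 ± 0.25 (SE).

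**Figure D4:**
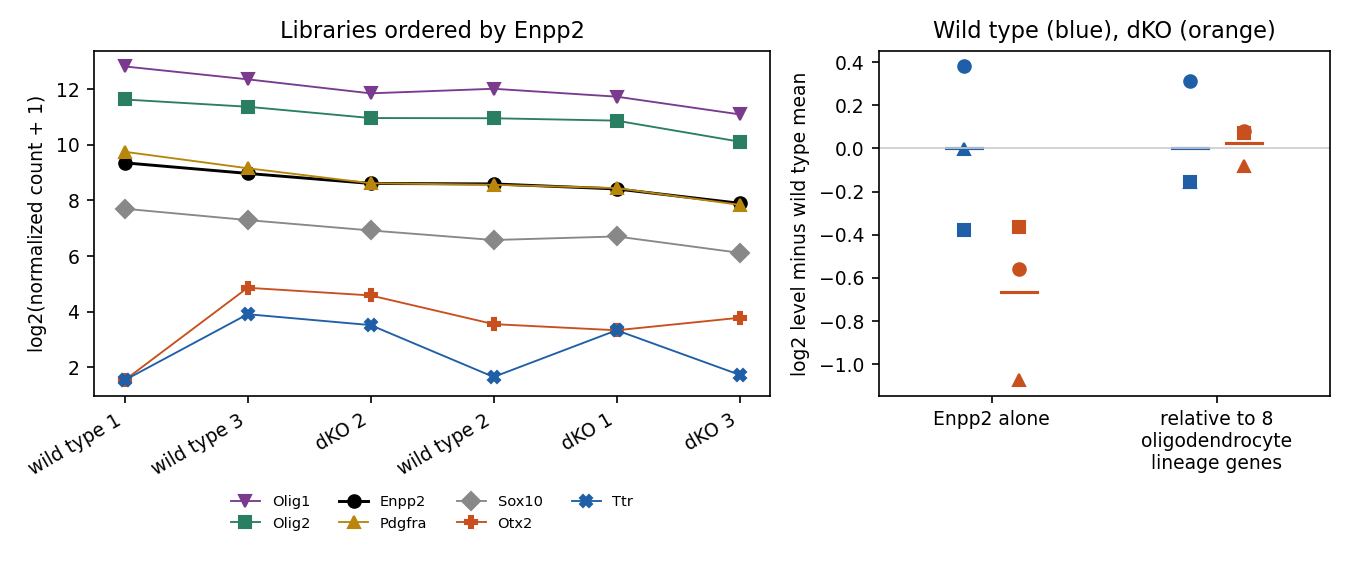
Left, log2(normalized count + 1) of Enpp2, 4 oligodendrocyte lineage genes and 2 choroid plexus genes, with the libraries ordered by Enpp2. Right, Enpp2 in each library as the log2 difference from the wild type mean, alone and relative to 8 lineage genes (shapes are library numbers, bars are means), where the dKO mean moves from -0.67 to 0.02.

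Igf2, the fetal growth factor, read 553, 565 and 840 normalized counts in wild type and 505, 601 and 566 in dKO. Wild type 3 alone stood above the rest, and the other 5 libraries overlapped between 505 and 601. The log2 fold change was -0.20 ± 0.16 (SE, adjusted p = 0.644 in limma), and without wild type 3 it was -0.01. H19, the noncoding RNA of the same imprinted domain, read 1662, 1584 and 3365 in wild type and 1290, 2744 and 1794 in dKO, so wild type 3 was highest there as well. Igf2 overlaps the antisense gene Igf2os, which had a mean of 10.9 normalized counts.

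Across the libraries, Igf2 had its highest correlations with the roof plate and cortical hem list (r = 0.887, exact permutation p = 0.0139, adjusted p = 0.136, rho = 0.657, exact permutation p = 0.175, adjusted p = 0.525) and the meninges list (r = 0.883, exact permutation p = 0.0778, adjusted p = 0.282, rho = 0.314, exact permutation p = 0.564, adjusted p = 0.911). Leaving out wild type 3 alone, chosen after seeing the data, gave r = 0.691 and 0.0569. Without the 2 libraries farthest from the median, wild type 3 with dKO 2 and wild type 3 with dKO 3, it was 0.242 and 0.265. Within genotypes with all libraries it was 0.873 and 0.902. For Igf2 and the wider choroid plexus epithelium list r was 0.758 (exact permutation p = 0.0167, adjusted p = 0.136). Spearman's rho for that list was 0.771 (exact permutation p = 0.103, adjusted p = 0.392). There r was 0.652 without wild type 3, 0.382 without wild type 3 and dKO 1, and 0.699 within genotypes. The 10 named features most like Igf2 were Selenbp1, Tpm1, Pvr, Sst, Crb1, Nhs, Mcam, Smim27, Lyrm7 and Egln3, with correlations of 0.961 to 0.990. Each was highest in wild type 3, which picking them for likeness to Igf2 favours.

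Igfbp2 was the steadiest of the 10 genes. It read 6880, 7897 and 8077 normalized counts in wild type and 7844, 7667 and 7930 in dKO, with means of 7618 ± 645 and 7814 ± 134 (SD, n = 3). The dKO values lay inside the wild type range, and wild type 1 was the lowest library. The log2 fold change was 0.04 ± 0.08 (SE) with a 95% interval of -0.14 to 0.22, and it turned to -0.03 under quantile normalization or without wild type 1. Of its relations with the 14 lists, the smallest exact permutation p was 0.0764 for Pearson's r (adjusted p = 0.282), with the ion and water transport list, and 0.242 for Spearman's rho (adjusted p = 0.564).

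Averaged over the 10 genes after standardizing each, the features whose pattern over the 6 libraries was most alike included Mfsd4a, Tgfbr2, Gpi1, Ak4, Smim27, Smpdl3a, Baiap3, Dpyd and Zcchc12, with correlations of 0.969 to 0.988. Wild type 3 was highest in each of them and dKO 2 next, as it was for Otx2, Clic6 and Aqp1. They were picked for likeness to the genes' pattern, so the choice itself favours a shared order. Wild type 3 was highest in 6 of the 10 choroid plexus genes, wild type 1 in 2, wild type 2 in 1 and dKO 3 in 1.

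Other genes of the choroid plexus epithelium were spread from near 0 to high levels. Of 33 listed genes, 31 were found, 23 had a mean of at least 10, and the median was 46.1 normalized counts. Those with the lowest levels included several restricted markers, with means of 1.19 normalized counts for Calml4, 1.56 for Kcne2, 1.89 for F5, 2.42 for Tmem72, 4.95 for Slc4a5 and 5.25 for Cldn2. Others were not near 0, such as Sostdc1 at 77.3 and Abca4 at 46.1. The most abundant was the monoamine transporter gene Slc29a4 at 9166, with a log2 fold change of -0.02. Limma called 0 of the 23 at an adjusted p of 0.05, as did edgeR and DESeq2, and 4 had an unadjusted p under 0.05, all lower in dKO, against 6.58% of all features. The median log2 fold change was -0.22. In the fit that left out wild type 3, 1 was lower at an unadjusted p under 0.05, and the median was -0.10. There is no share over all features for that fit. Cab39l and Slc13a4, 2 of the 31, had genotypes that did not overlap, both lower in dKO, against 8.48% of the features tested. Cab39l read 522, 586 and 575 in wild type and 465, 458 and 444 in dKO, and Slc13a4, below the mean for a test, read 5.71, 10.7 and 24.5 in wild type and 0, 4.18 and 0 in dKO.

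The named genes of this list were the simple epithelial keratins Krt8 and Krt18 and the serotonin receptor gene Htr2c. Krt8 read 30.4, 29.0 and 51.7 in wild type and 25.4, 186 and 268 in dKO, and Krt18 read 12.4, 12.9 and 37.7 in wild type and 9.08, 163 and 193 in dKO. dKO 2 and dKO 3 were far above the other 4 libraries, and dKO 1 was the lowest of all for both genes. The log2 fold changes were 1.58 ± 0.81 and 1.83 ± 1.15 (SE, adjusted p = 0.499 and 0.574 in limma), and without dKO 1 they were 2.61 and 3.21 with adjusted p of 0.0251 and 0.0412. Leaving out dKO 1 removes the dKO library that went against the difference, so these p-values support nothing. That fit called 46 of all features, against 19 with all libraries. Ttr did not follow them, with 10.5 and 2.32 normalized counts in dKO 2 and dKO 3. Htr2c read 74.2, 32.2 and 210 in wild type and 41.7, 37.6 and 18.6 in dKO, with wild type 3 highest and overlapping groups, and its log2 fold change was -1.34 ± 0.61 (adjusted p = 0.442), and -0.65 without wild type 3.

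Genes in the pathways of the choroid plexus products were described in the same way, and limma and edgeR called 0 of them at an adjusted p of 0.05 in each list, and DESeq2 called the 2 named below. Over all features, 6.58% were lower and 4.92% higher at an unadjusted p of 0.05. Of 12 ion and water transport genes, 2 were lower and 1 higher in dKO at an unadjusted p of 0.05, the median log2 fold change being -0.11. The sodium bicarbonate transporter gene Slc4a10 had a log2 fold change of -0.68 ± 0.16 (SE), the sodium pump subunit gene Atp1b1 one of -0.53 ± 0.16 and the astrocyte water channel gene Aqp4 one of -0.98 ± 0.55. DESeq2 called Slc4a10 (adjusted p = 0.0143) and Atp1b1 (adjusted p = 0.0389), beside 207 of all 18970 features.

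Of 15 tested receptors, phosphatases and relatives around lysophosphatidic acid, the product of autotaxin, 0 had an unadjusted p under 0.05, although 13 were negative, the median log2 fold change being -0.16. The receptor gene Lpar1 read 81.8, 139 and 101 in wild type and 152, 129 and 157 in dKO, with a log2 fold change of 0.47 ± 0.23. The lipid phosphatase gene Plpp2 was at -0.37 ± 0.17 and the ectonucleotide phosphodiesterase gene Enpp3 at -0.48 ± 0.23.

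Of 15 tested genes of the insulin-like growth factor system, 2 were lower and 1 higher in dKO at an unadjusted p of 0.05, with a median of 0.07. Igf1 had a log2 fold change of -0.71 ± 0.23 and read 287, 212 and 334 in wild type and 152, 227 and 133 in dKO, so dKO 2 overlapped wild type 2. The RNA-binding protein genes Igf2bp3 and Igf2bp1 were at 0.43 ± 0.13 and 0.31 ± 0.20. The Igf2bp3 values of 842, 699 and 789 in dKO all lay above the 549, 675 and 517 of wild type.

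Of 9 genes of thyroid hormone and retinol handling, the cargo of transthyretin, 1 was lower and 1 higher at an unadjusted p of 0.05, with a median of -0.23. The thyroid hormone receptor gene Thrb was at -0.50 ± 0.21 and the deiodinase gene Dio2 at -0.43 ± 0.22. Of 7 tested folate genes, 0 had an unadjusted p under 0.05 and the median was 0.09. The folate transporter gene Slc46a1 was at -0.34 ± 0.20 and Tyms at 0.21 ± 0.15. Of 9 tested roof plate and cortical hem genes, 1 was lower and 1 higher at an unadjusted p of 0.05, with a median of -0.26. The Wnt pathway agonist genes Rspo2 and Rspo3 were at -0.49 ± 0.14 and 0.55 ± 0.23, and Wnt5a was at -0.20 ± 0.24.

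Markers of other cells that a cortex sample could hold were read beside these genes, and limma and edgeR called 0 in every list at an adjusted p of 0.05, and DESeq2 called the 2 named below. Here a gene is counted as lower or higher only at an unadjusted p under 0.05. The counts stand against the same 6.58% lower and 4.92% higher over all features. Those shares are from the fit of all libraries, and counts without wild type 3 have no such share beside them. Those counts also rest on fewer wild type libraries. Of 12 tested meninges genes, 4 were lower, the median log2 fold change being -0.80, and Ptgds, Col1a2 and Col3a1 were at -0.97 ± 0.34, -0.83 ± 0.39 and -0.76 ± 0.40 (SE). When wild type 3 was left out, 1 was lower, the median was -0.45 and these 3 genes were at -1.02, -0.44 and -0.27. Of 12 tested endothelial and mural cell genes, 3 were lower with a median of -0.20, and Flt1, Kdr and Ly6c1 were at -0.76 ± 0.21, -0.66 ± 0.23 and -0.49 ± 0.26. DESeq2 called Flt1 (adjusted p = 0.0237), beside 207 of all 18970 features. Without that library, 2 were lower and the median was -0.16. Of 10 tested motile cilia genes, 2 were lower with a median of -0.94, and Tppp3, Foxj1 and Dnah5 were at -0.87 ± 0.32, -0.69 ± 0.35 and -0.39 ± 0.30. Leaving out wild type 3 again, 0 were lower at an unadjusted p under 0.05. The median was then -0.50 and these 3 genes were at -0.64, -0.48 and -0.30. Foxj1 was at -0.39 without dKO 3, and Dnah5 at -0.12 without wild type 1 and -0.26 without dKO 3.

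Of 5 tested erythroid genes, 0 had an unadjusted p under 0.05 and the median was 0.20, with Slc4a1, Hba-a2 and Alas2 at 0.23 ± 0.28, 0.20 ± 0.17 and 0.20 ± 0.15 (SE). Of 9 cortical excitatory neuron genes, 4 were higher at an unadjusted p of 0.05 with a median of 0.25, and Emx1, Bcl11b and Neurod2 were at 0.54 ± 0.09, 0.31 ± 0.11 and 0.31 ± 0.11. DESeq2 called Emx1 (adjusted p = 0.00051), beside 207 of all 18970 features. With wild type 3 left out, 3 were higher at an unadjusted p under 0.05, and the median was 0.17. No share over all features stands beside that fit. Of 2 tested thalamus genes, 0 had an unadjusted p under 0.05, and Tcf7l2 was at 0.43 ± 0.27. In the same fit the median was 0.33 for the erythroid and 0.10 for the thalamus genes, against -0.10 for the latter with it. For the pathway lists above, the medians without wild type 3 were -0.15 for ion and water transport, -0.14 for lysophosphatidic acid, 0.08 for insulin-like growth factors, -0.12 for thyroid hormone and retinol handling, 0.12 for folate and -0.17 for roof plate and cortical hem. The part of these cell types in the values of Enpp2 and Igf2 was not tested.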

How the data were processed

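PolyA+ RNA (TruSeq Stranded mRNA) of 6 E18.5 cortex libraries, 3 wild type and 3 Sam68:Slm2 dKO, was measured. The authors deposited a signal per gene, the read count divided by the DESeq2 size factor of its library, on FAST DB genes. The processing notes of the submitters name mm10, FastQC, Picard, SAMtools, STAR 2.7.5a and DESeq2. The counting program and its strand setting are not given in the sources used here. All positive values (100%) of a library were multiples of its smallest one by a whole number (tolerance 0.02), so reads were recovered, 31837922 to 40896541 per library. Floors of 3 reads cover counting error only and are too low where a fragment was counted more than once.

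Genotypes were compared in R 4.3.3 with limma 3.58.1 (lmFit, eBayes with trend and robust) on log2(normalized count + 1) for features that averaged 10 or more, with Benjamini-Hochberg adjustment over all 18970 and a threshold of 0.05. Alternatives were pseudocounts, filters on the mean, quantile and TMM scaling, limma without trend and robust, tests of the recovered reads by edgeR 4.0.16 and DESeq2 1.42.0, the replicate block and leaving out each library. Levels per kb used the union of GENCODE M21 exons, and the exon sequences came from the same release (GRCm38).

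All 10 genes are named. From each of 14 other lists, genes with an adjusted p under 0.05 are named or, where there is none, up to 3 with a mean of at least 50 and the largest change, and a few more were named after their values were seen. Likeness is the Pearson correlation over 6 libraries among named features with a mean of at least 50. The genes and lists were chosen with earlier results of these data known. Likeness to Enpp2 and Igf2 alone, the sum of the 7 low genes, the list values and Igf2 correlations without wild type 3 and the scaling of Enpp2 to lineage genes were chosen after seeing the data. A few genes that these rules select are not reported here.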

Additional observations from a re-analysis of the deposited data

How the results depend on the processing

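No choroid plexus gene was called at an adjusted p of 0.05 under any alternative run, those that left out a library included. The number with an unadjusted p under 0.05 was 1 in the main analysis and in every alternative but 2, and it ranged from 0 to 1 when a library was left out. The median log2 fold change of the tested genes lay between -0.57 and 0.04 when a library was left out, the latter without wild type 3. The number of wider choroid plexus epithelium genes called was 0 to 2 when a library was left out, the 2 being Krt8 and Krt18 without dKO 1.

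Over all features, 19 were called in the main analysis, 207 with DESeq2 and 7 by limma without trend and robust. Leaving out a library gave 7 to 46. With the replicate block 9 were called. Deviations of same-numbered libraries correlated at 0.098, -0.228 and -0.079, and those of other pairs at -0.138 to 0.205. The labels do not say whether the numbers pair the samples, and these few values cannot decide it. In the paired fit the log2 fold change of Enpp2 was -0.67 (adjusted p = 0.328), and the block called no choroid plexus gene.

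Leaving out a library turned the log2 fold change of 3 genes, with ranges of -0.31 (without wild type 1) to 1.35 for Otx2, -1.50 to 0.29 (without wild type 3) for Clic6 and -0.0317 (without wild type 1) to 0.0840 for Igfbp2. Igfbp2 also turned with quantile normalization (-0.0306), as did Enpp2 relative to the lineage genes (0.0241, chosen after seeing the data). The cause was not tested. For the named genes, 737 other values under an alternative kept their direction and side of the threshold, and 8 passed it. Depth limits Ttr, Folr1, Kcnj13 and Kl, which rest on few reads.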
